A study of Mus musculus with 11 samples.

Results

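Iron and heme handling was described through 10 genes: heme oxygenase (Hmox1), the biliverdin reductases Blvra and Blvrb, ferroportin (Slc40a1), transferrin receptor (Tfrc), the metalloreductase Steap3, the metal transporters Slc11a1 and Slc11a2, ferritin heavy chain (Fth1) and the iron sensor Ireb2. The genes were chosen by name with earlier results of these data known, so a count of calls among them is a description. The brightest probe set of each, averaged over the 11 arrays, stood for it, and all 10 were measured among the 18193 genes tested. M1 macrophages (3 arrays) were given interferon-gamma (IFN-g) and lipopolysaccharide (LPS), the LPS over the last 24 hours. M2a macrophages (3 arrays) were given IL-4 and IL-13, and M0 macrophages (5 arrays) were given no cytokine. All 3 groups came from the marrow of C57BL/6 mice that were 7 weeks old and carried the Rag1-/- deletion, which leaves mice without mature B and T cells. The marrow was kept in culture for 7 days before F4/80-bearing cells were sorted, so the deletion and the sort were shared by the controls. The labels give neither cytokine doses nor whether replicates came from separate mice, so each p-value reflects the spread among the samples of this experiment, and that spread may be technical. Values are log2 signals of an Affymetrix expression array, and a gene was called changed where its adjusted p (limma, Benjamini-Hochberg over all 18193 genes) was under 0.05.

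Macrophages recover iron from the heme of engulfed red cells. Heme oxygenase opens the heme ring and releases iron, carbon monoxide and biliverdin, which is then reduced to bilirubin. The freed iron is either stored in ferritin or exported by ferroportin, the only known cellular iron exporter of mammals. Iron also enters on transferrin through its receptor, is reduced in the endosome and leaves that compartment through a metal transporter. In iron-poor cells the iron regulatory proteins, one of them encoded by Ireb2, stabilize the Tfrc transcript and hold back the translation of ferritin and ferroportin. C57BL/6 mice carry a loss-of-function allele of Slc11a1, so a level of that transcript is not a level of working transporter.

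Promoter sequence was taken from RefSeq (GRCm38.p6) for Blvrb and Tfrc, a rising and a falling gene of the M1 cells that both had a window there; such windows were at hand for 7 of the 10 genes. Each line gives the 250 bases before the gene's start, 5′ to 3′ on the + strand, Blvrb at chr7:27447728-27447977 and Tfrc at chr16:32608646-32608895, and capitals mark a motif match.
Blvrb: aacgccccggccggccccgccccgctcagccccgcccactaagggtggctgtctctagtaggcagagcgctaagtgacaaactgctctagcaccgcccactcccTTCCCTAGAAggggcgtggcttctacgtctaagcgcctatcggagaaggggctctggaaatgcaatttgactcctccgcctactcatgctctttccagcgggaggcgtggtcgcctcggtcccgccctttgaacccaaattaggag
Tfrc: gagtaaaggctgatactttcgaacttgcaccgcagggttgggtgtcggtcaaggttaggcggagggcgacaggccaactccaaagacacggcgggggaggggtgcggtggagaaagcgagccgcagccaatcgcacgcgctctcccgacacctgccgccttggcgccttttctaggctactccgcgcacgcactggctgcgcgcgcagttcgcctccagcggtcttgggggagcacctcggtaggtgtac
The 4 motifs searched on both strands were the spacing preferred by STAT6 (TTC and GAA parted by 4 bases), an interferon-stimulated response element (GAAA and GAAA parted by 2 bases), the antioxidant response element core (TGACNNNGC) and the hypoxia response element core (ACGTG). The Blvrb window held 1 match, with the STAT6 spacing, from 146 to 137 bases before the start, and the Tfrc window held 0. Over 32851 promoter windows of 250 bases, 5.85% held the STAT6 spacing, 2.98% the interferon-stimulated element, 10.2% the antioxidant core and 16.6% the hypoxia core. GC content was 62% in the Blvrb window and 64.8% in the Tfrc window. A match of letters is a description and does not show binding.

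The F4/80 label was checked first. Adgre1, which encodes F4/80, averaged 12.41 in M1 cells, 11.74 in M2a cells and 11.19 in M0 cells. Of 7 macrophage markers measured, 3 were called higher and 1 lower in M1 than in M0 cells, and in M2a cells Adgre1 was the 1 called higher while 4 were called lower: Fcgr1 (-2.08), Mertk (-1.85), Csf1r (-1.21) and Lyz2 (-0.80). Neutrophil-lineage markers (9 genes measured, Mpo and S100a9 among them) had array means of 6.83 to 7.01 in M1 cells, 5.46 to 5.57 in M2a cells and 11.21 to 12.80 in M0 cells, and all 9 were called lower in M1 and in M2a cells than in M0 cells. Markers of eosinophils, basophils and mast cells (6 genes) had array means of 3.83 to 3.96 in M1, 4.21 to 4.34 in M2a and 7.15 to 9.33 in M0 cells, and all 6 were likewise called lower in both. Erythroid markers (7 genes) lay between 4.84 and 5.08 in M1, 4.82 and 4.90 in M2a and 4.56 and 5.02 in M0 cells. The part of these marker differences in the iron and heme values was not tested. The hybridization controls, transcripts added in known amount when an array is hybridized, also stood apart, with means of 9.64 to 9.75 on M1, 9.79 to 9.96 on M2a and 10.61 to 11.71 on M0 arrays. Poly-A controls, added to the RNA before labelling, read 5.56 to 5.66 on M1, 6.31 to 6.50 on M2a and 9.19 to 10.33 on M0 arrays. The 18S probe sets read 6.15 to 6.30 on M1, 8.51 to 8.64 on M2a and 8.96 to 9.54 on M0 arrays. The 5′ minus 3′ difference of actin, a measure of RNA integrity and labelling, was 0.13 to 0.18 on M1, -0.63 to -0.53 on M2a and -1.27 to 0.05 on M0 arrays. These measures also part M1 from M2a arrays, and in every comparison their part in the results was not tested beyond the covariate fits given. The M0 arrays were tied in addition: on all 45101 probe sets the mean of M0 arrays 1 to 3 equalled that of M0 arrays 4 and 5 to within 8.3e-05. The test counts them as independent, and the sources used here give no reason for the tie.

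Across the 10 genes, M1 cells had more Hmox1, Blvrb, Slc11a1, Slc11a2 and Fth1 transcript than M0 cells and less Tfrc and Slc40a1. M2a cells had far less Slc40a1 and less Slc11a1 than M0 cells, and more Steap3 and Slc11a2. In M1 against M0, 7 of 10 genes were called, beside 39.7% of all genes: 5 were higher (22.1% of all genes) and 2 lower (17.6%). The arrays of 7 genes did not overlap (40.1% of all genes), and 6 called genes changed at least 2-fold (12.7%). In M2a against M0, 4 of 10 were called, beside 31.9%: 2 were higher (18.6%) and 2 lower (13.3%), 5 did not overlap (35.1%) and 1 changed at least 2-fold (9.36%). In M1 against M2a, 7 of 10 were called, beside 29.4%: 5 were higher (13.7%) and 2 lower (15.6%), 9 did not overlap (64.6%) and 5 changed at least 2-fold (11%). In a fit of the 9096 genes above the median gene in signal, which held all 10, 4625 were called in M1 against M0. There 3977 were called in M2a against M0 and 3798 in M1 against M2a, in each comparison a larger share than over all genes. The 10 genes gave 7, 4 and 7 calls in that fit. The median difference of the 10 genes was 0.31 in M1 against M0, 0.19 in M2a against M0 and 0.33 in M1 against M2a, and the medians over all genes were 0.06, 0.07 and -0.02. With quantile normalization the 7 calls of M1 against M0 split into 4 higher and 3 lower, where the deposited values gave 5 higher and 2 lower. Over all 18193 genes that normalization gave 8427 calls, beside 7217. In a fit that took the mean hybridization control signal as a covariate, Hmox1 in M1 against M0 was 1.97 and still called, while Blvrb (0.45) and Slc11a1 (0.59) in M1 and Slc11a2 in M2a cells (0.47) were not. The same fit enlarged the differences of Slc40a1 in M1 (-2.05) and of Slc11a1 (-1.66) and Steap3 (1.07) in M2a against M0. The plot of log2 signal by array shows each value behind these counts.

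**Figure D1:**
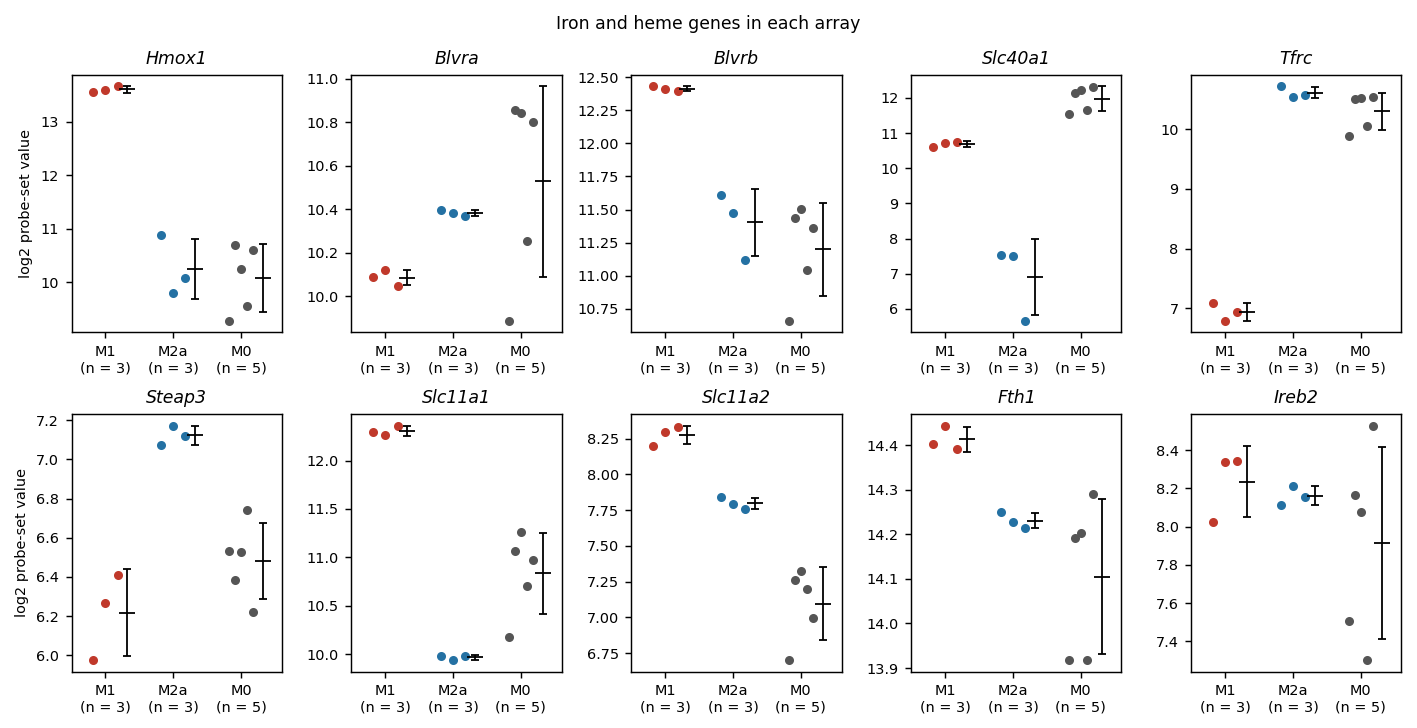
Log2 signal of the 10 genes on each array, with M1 and M2a cells (3 arrays each) left of M0 cells (5 arrays); points are arrays, bars are group means ± SD, and each panel has its own y scale. Hmox1 is high on all 3 M1 arrays, Tfrc is low on all 3 M1 arrays and Slc40a1 is low on all 3 M2a arrays.

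Heme breakdown came first. Hmox1 carried the largest rise among the 10 genes in M1 cells, where its log2 signal was 13.55, 13.60 and 13.67. In M2a cells it was 10.88, 9.79 and 10.07, and in M0 cells 9.28, 10.70, 10.25, 9.55 and 10.60. Every M1 array lay above every M2a and M0 array, and the M2a arrays lay within or just above the M0 range. Hmox1 was 11.5-fold higher in M1 than in M0 cells (log2 difference 3.53 ± 0.33 SE, adjusted p = 6.9e-06). It was also 10.3-fold higher in M1 than in M2a cells (3.36 ± 0.37 SE, adjusted p = 2.9e-05). In M2a against M0 the difference was 0.17 ± 0.33 SE, with a 95% interval of -0.56 to 0.90 and an adjusted p of 0.732, so neither a rise nor a fall within that interval could be told from 0. Since these are sorted populations measured in bulk, fewer cells of a type and less RNA per cell cannot be told apart, here and in the comparisons that follow.

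Blvrb, the reductase that also acts on flavins, was higher in M1 cells as well. Its log2 signal was 12.43, 12.41 and 12.40 in M1 cells, 11.61, 11.48 and 11.12 in M2a cells and 10.66, 11.44, 11.50, 11.04 and 11.36 in M0 cells. The M1 arrays stood above all others, and M2a and M0 arrays overlapped. Blvrb was 2.32-fold higher in M1 than in M0 cells (1.21 ± 0.18 SE, adjusted p = 0.000295) and 2.01-fold higher in M1 than in M2a cells (1.01 ± 0.21 SE, adjusted p = 0.003). In M2a against M0 it differed by 0.20 ± 0.18 SE (95% interval -0.20 to 0.61, adjusted p = 0.439).

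Blvra, the other biliverdin reductase, did not rise with them. It measured 10.09, 10.12 and 10.05 in M1 cells, 10.40, 10.38 and 10.37 in M2a cells, and 9.89, 10.85, 10.84, 10.25 and 10.80 in M0 cells. The M1 and M2a arrays lay apart from each other, and both lay inside the wide M0 range. The difference was -0.44 ± 0.20 SE in M1 against M0 (adjusted p = 0.104), -0.14 ± 0.20 SE in M2a against M0 (adjusted p = 0.629) and -0.30 ± 0.23 SE in M1 against M2a (adjusted p = 0.362). Under 6 of 25 alternative settings Blvra passed the test as lower in M1 than in M0 cells, among them the fit without M0 arrays 1 and 4, where the difference was -0.75. In M1 against M2a it passed as lower under 4 of 25, among them the arrays of those groups alone. Over the 25 settings that difference ran from -0.61 to -0.27. The SE of M1 against M2a pools the spread of all arrays, and the SD of Blvra was 0.04 in M1, 0.01 in M2a and 0.44 in M0 cells.

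The export gene Slc40a1 was lowest in M2a cells. Slc40a1 had a log2 signal of 10.60, 10.72 and 10.75 in M1 cells. It had 7.54, 7.51 and 5.67 in M2a cells, against 11.55, 12.15, 12.23, 11.64 and 12.31 in M0 cells. The 3 groups did not overlap: M0 arrays were highest, M1 arrays lay below them and M2a arrays lay far below both. Ferroportin transcript was 33.6-fold lower in M2a than in M0 cells (-5.07 ± 0.37 SE, adjusted p = 1.7e-06) and 13.8-fold higher in M1 than in M2a cells (3.79 ± 0.41 SE, adjusted p = 2.7e-05). In M1 against M0 it was 2.44-fold lower (-1.29 ± 0.37 SE, adjusted p = 0.0166).

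The third M2a array was the lowest for Slc40a1 by a wide margin. Without it the M2a difference from M0 was -4.45 and the M1 difference from M2a was 3.17. The mean of the macrophage markers was also lower in M2a cells, at 10.11 to 10.47 beside 10.69 to 11.44 in M0 cells. Of the 7 markers 4 were called lower, Adgre1 was called higher (0.55) and 2 were not called. The third M2a array also had the lowest macrophage marker mean of the M2a group (10.11, beside 10.45 and 10.47), and the part of that in the result was not tested. The smaller M1 difference was not called without M1 array 1 (-1.24) or without M1 array 2 (-1.30). A second Slc40a1 probe set read 9.37, 9.33 and 9.42 in M1 cells, 5.93, 5.91 and 3.76 in M2a cells and 9.95, 10.61, 10.74, 9.50 and 11.37 in M0 cells. It fell in M2a against M0 as well (-5.23, adjusted p = 1.7e-05), whereas its M1 difference from M0 of -1.06 did not pass the test (adjusted p = 0.115).

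Of the uptake genes, Tfrc fell in M1 cells. Tfrc measured 7.09, 6.80 and 6.94 in M1 cells, 10.72, 10.54 and 10.57 in M2a cells and 9.88, 10.50, 10.51, 10.06 and 10.54 in M0 cells. All M1 arrays lay well below both other groups, while the lowest M2a and the highest M0 array both rounded to 10.54. Transferrin receptor transcript was 10.2-fold lower in M1 than in M0 cells (-3.35 ± 0.16 SE, adjusted p = 2.8e-08) and 12.7-fold lower in M1 than in M2a cells (-3.66 ± 0.18 SE, adjusted p = 2.8e-08). In M2a against M0 the difference was 0.31 ± 0.16 SE (95% interval -0.04 to 0.66, adjusted p = 0.165).

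Tfrc is high in dividing cells, so cell-cycle markers are given beside it. Their array means (7 genes, Mki67 among them) were 6.03 to 6.10 in M1, 6.01 to 6.35 in M2a and 8.31 to 8.89 in M0 cells, and all 7 were called lower in M1 and in M2a than in M0 cells. In M1 against M2a, 4 of the 7 were called, with Mki67 (1.14) and Aurkb (1.09) higher and Rrm2 (-2.004) and Top2a (-0.56) lower. The part of these marker levels in the Tfrc difference was not tested. The size of the Tfrc difference depended on the probe set. A second probe set, read at 5.10, 5.32 and 5.08 in M1 cells, 5.98, 6.05 and 5.95 in M2a cells and 5.27 to 5.77 in M0 cells, differed by -0.36 in M1 against M0 (adjusted p = 0.0329), by 0.47 in M2a against M0 (adjusted p = 0.0111) and by -0.83 in M1 against M2a (adjusted p = 0.000643). The third Tfrc probe set averaged 3.66 in M1, 3.82 in M2a and 3.98 in M0 cells. These means lay below the median signal of an array, and the probe set is not shown to lie above background. It differed by -0.32 in M1 against M0 (adjusted p = 0.0364). It was called neither in M2a against M0 (-0.16, adjusted p = 0.299) nor in M1 against M2a (-0.16, adjusted p = 0.369). With the mean of all Tfrc probe sets the differences were -1.34 in M1 against M0 and -1.55 in M1 against M2a, and both were called.

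**Figure D2:**
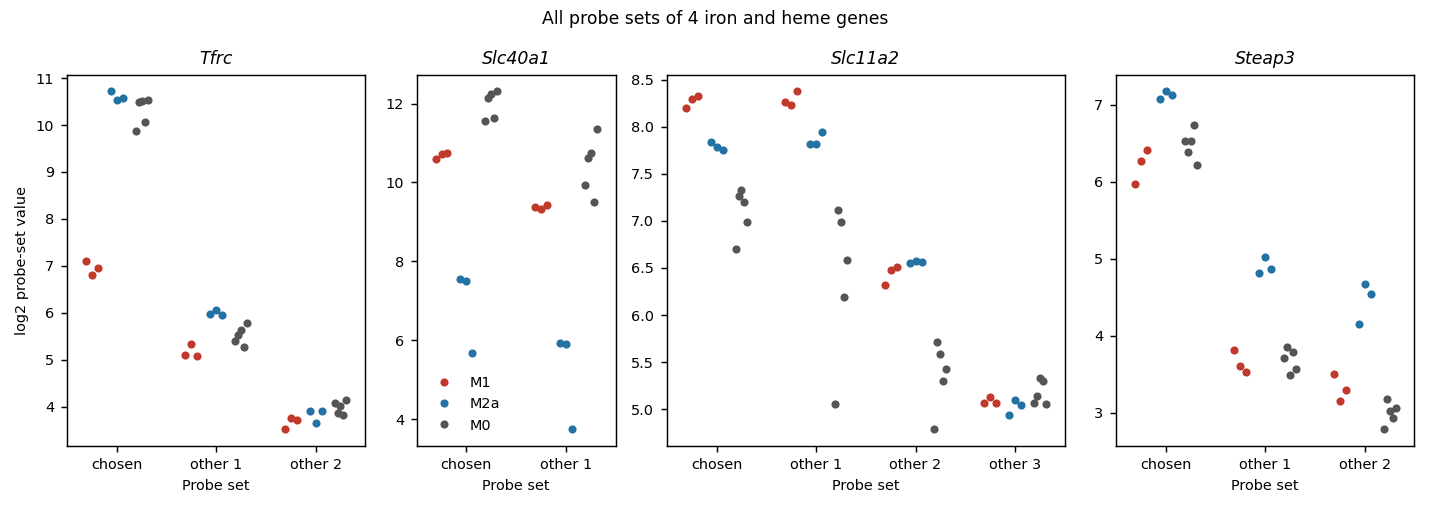
Log2 value (y axis, a scale per panel) of every probe set of Tfrc, Slc40a1, Slc11a2 and Steap3 on each array; the chosen probe set is leftmost, points are arrays, and M1 and M2a cells stand left of M0 cells. M1 arrays are far below M0 arrays on the chosen Tfrc probe set and closer to them on the others, and M2a arrays are lowest on both Slc40a1 probe sets.

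Steap3, which reduces ferric iron in the endosome, was the uptake gene that rose in M2a cells. It measured 7.07, 7.17 and 7.12 in M2a cells, with 5.98, 6.27 and 6.41 in M1 cells and 6.53, 6.38, 6.53, 6.74 and 6.22 in M0 cells. All M2a arrays lay above all others, and M1 and M0 arrays overlapped. The rise in M2a over M0 cells was 1.56-fold (0.64 ± 0.13 SE, adjusted p = 0.0028), and M1 cells were 1.87-fold lower than M2a cells (-0.90 ± 0.14 SE, adjusted p = 0.00055). In M1 against M0 the difference was -0.26 ± 0.13 SE (95% interval -0.55 to 0.02, adjusted p = 0.128). Both other Steap3 probe sets were also called higher in M2a than in M0 cells, by 1.46 (adjusted p = 1.3e-05) and 1.22 (adjusted p = 1.2e-05). The first averaged 4.46 in M2a and 3.00 in M0 cells, the second 4.90 in M2a and 3.68 in M0 cells. All these means lay below the median signal of an array, and neither probe set is shown to lie above background. The mean of all Steap3 probe sets, which includes them, gave 1.11.

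The endosomal metal transporters Slc11a1 and Slc11a2 were called in opposite directions in M2a cells. Slc11a1, a phagosomal transporter tied to resistance to intracellular microbes in mice, measured 12.30, 12.26 and 12.36 in M1 cells. It measured 9.99, 9.94 and 9.99 in M2a cells, and 10.18, 11.07, 11.26, 10.70 and 10.97 in M0 cells. M1 arrays lay above all M0 arrays and M2a arrays below all of them. Slc11a1 was 2.77-fold higher in M1 than in M0 cells (1.47 ± 0.20 SE, adjusted p = 0.000109), 1.82-fold lower in M2a than in M0 cells (-0.87 ± 0.20 SE, adjusted p = 0.0054) and 5.05-fold higher in M1 than in M2a cells (2.34 ± 0.22 SE, adjusted p = 7.3e-06). Among the 10 genes it alone was called in opposite directions in the comparisons of M1 and M2a with M0, which share their M0 arrays.

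Slc11a2, the transporter that moves transferrin-derived iron out of the endosome, was called higher in both. It measured 8.20, 8.30 and 8.33 in M1 cells, 7.84, 7.79 and 7.76 in M2a cells and 6.70, 7.26, 7.33, 7.20 and 6.99 in M0 cells. The groups did not overlap, with M1 arrays highest and M0 arrays lowest. The differences were 1.18 ± 0.13 SE in M1 against M0 (2.26-fold, adjusted p = 2.9e-05) and 0.70 ± 0.13 SE in M2a against M0 (1.62-fold, adjusted p = 0.0019). M1 exceeded M2a cells by 0.48 ± 0.15 SE (adjusted p = 0.0304), a call lost under 8 of 25 alternative settings, which included leaving out any M1 or any M2a array (0.45 to 0.52). Of the other Slc11a2 probe sets, 2 were called higher against M0 in both states (1.90 and 1.07 in M1, 1.47 and 1.20 in M2a), and neither was called in M1 against M2a (0.43 and -0.13). The last Slc11a2 probe set was not called in any comparison, at -0.09 in M1 and -0.16 in M2a against M0.

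The storage and sensing genes differed little. Fth1, the ferritin subunit that oxidizes iron for storage, measured 14.40, 14.44 and 14.39 in M1 cells, 14.25, 14.23 and 14.21 in M2a cells and 13.92, 14.19, 14.20, 13.92 and 14.29 in M0 cells. M1 arrays lay above all others, and the highest value anywhere in the table was 14.49, so these readings stood near the top of its scale. Fth1 was called 1.24-fold higher in M1 than in M0 cells (0.31 ± 0.10 SE, adjusted p = 0.0335), a call lost under 10 of 25 alternative settings and turned in sign by 1. Leaving out M0 array 1 or M0 array 4 gave 0.26 each and no call, and leaving out any M1 array gave 0.29 to 0.32 and no call; without M2a array 2, which leaves the difference at 0.31, it was not called either. In M2a against M0 it differed by 0.13 ± 0.10 SE (adjusted p = 0.387) and in M1 against M2a by 0.18 ± 0.12 SE (adjusted p = 0.272). The Fth1 difference of M1 from M2a was called under 2 of 25 settings, the arrays of those groups alone and array weights. It turned in sign under 2 others.

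Ireb2, the iron-sensing protein that binds transcripts in iron-poor cells, was not called in any comparison. It measured 8.02, 8.34 and 8.34 in M1 cells, 8.11, 8.21 and 8.16 in M2a cells and 7.50, 8.16, 8.08, 7.30 and 8.53 in M0 cells. The M0 arrays spanned both other groups. The differences were 0.32 ± 0.24 SE in M1 against M0 (adjusted p = 0.307), 0.25 ± 0.24 SE in M2a against M0 (adjusted p = 0.466) and 0.07 ± 0.26 SE in M1 against M2a (adjusted p = 0.866). The plot of differences sets the 10 genes side by side.

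**Figure D3:**
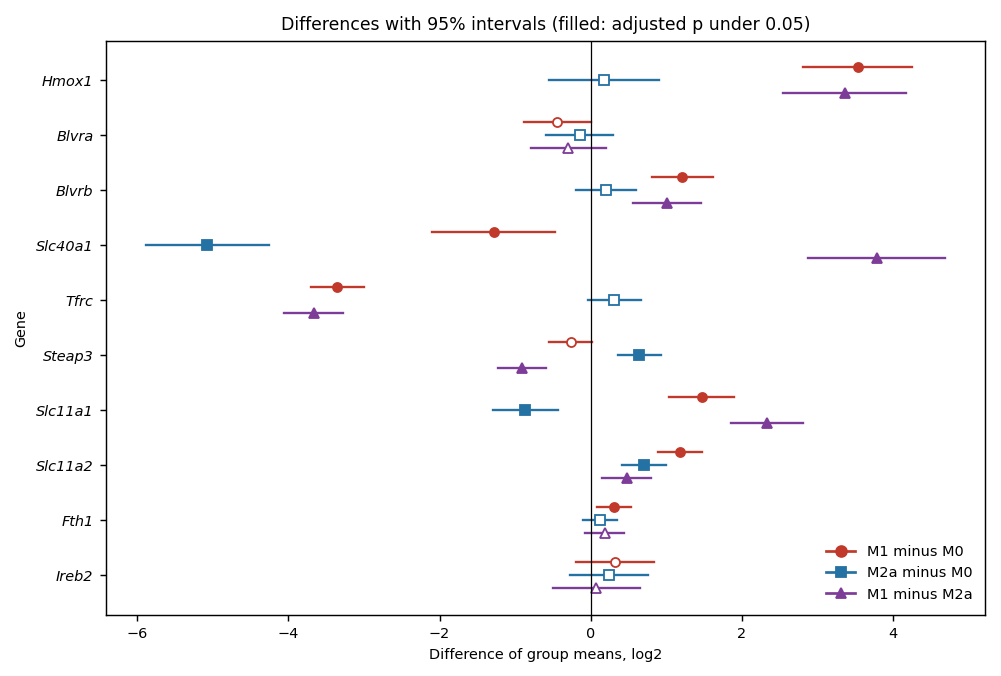
Log2 difference of each gene in M1 against M0, M2a against M0 and M1 against M2a, with 95% intervals from the limma fit; filled points passed the test. Slc40a1 lies at -5.07 in M2a against M0, and Tfrc (-3.35) and Hmox1 (3.53) lie at the ends of M1 against M0.

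The spread within groups was unequal. The median SD of the 10 genes was 0.06 in M1 cells, 0.05 in M2a cells and 0.35 in M0 cells, and 8 of the 10 varied most in M0 cells. M0 array 1 gave the lowest M0 value for 7 of the 10 genes and M0 array 4 for 2, and for 8 genes these were the lowest pair. Over all genes the median SD was 0.082 in M1, 0.0857 in M2a and 0.244 in M0 cells. Macrophage markers (7 genes) were lowest in those same M0 arrays, 10.75 in array 1 and 10.69 in array 4, with a highest M0 value of 11.44. Neutrophil-lineage markers were highest in M0 array 1 (12.80). 

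**Figure D4:**
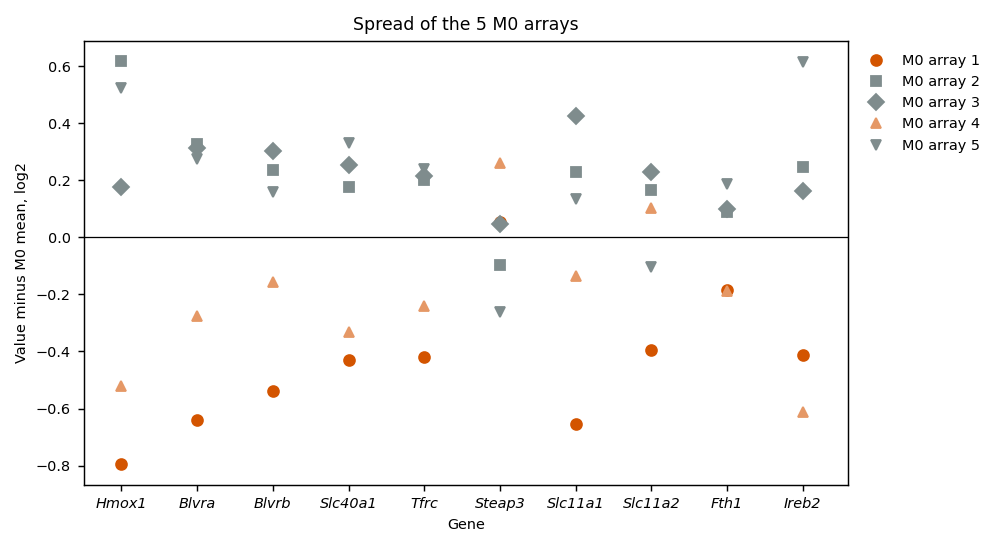
Log2 signal on each of the 5 M0 arrays minus the gene's M0 mean (y axis) for the 10 genes (x axis), with a marker shape for each array and arrays 1 and 4 in orange. Arrays 1 and 4 lie below the others for 8 of the 10 genes, and Steap3 and Slc11a2 are the exceptions.

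A wider list of 55 iron and heme genes, of which 50 were measured, set these genes in their pathways. In M1 against M0, 25 of 50 were called (39.7% of all genes were), 16 higher and 9 lower, with a median of 0.15. In M2a against M0, 21 were called (31.9% of all genes), 10 higher and 11 lower, with a median of 0.12, and in M1 against M2a 18 were called (29.4% of all genes), 11 higher and 7 lower, with a median of -0.07. Over all genes, 22.1% were called higher and 17.6% lower in M1 against M0, and 18.6% higher and 13.3% lower in M2a against M0. Against M0, mitochondrial iron and iron-sulfur cluster genes split into 4 higher and 1 lower of 7 in M1 cells and into 1 higher and 2 lower of 7 in M2a cells. Of 7 heme synthesis genes, 2 were called in M1 cells, both higher, and the M2a calls split into 3 higher and 1 lower. Heme uptake, transport and scavenging genes gave 3 higher and 2 lower of 9 in each state, and iron uptake and transport genes 2 higher and 2 lower of 10 in each state. Of 6 transcription regulators listed under heme sensing, a name that does not describe each of them, 2 were higher and 1 lower in M1 cells. In M2a cells 2 of them were called, both lower. Of 4 storage and release genes, 1 was higher and 2 lower in M1 cells and 1 higher and 1 lower in M2a cells. Of 5 export genes, 1 was higher and 1 lower in M1 cells, and 0 were called in M2a cells. Of 2 iron sensing genes, 1 was called in each state, higher in M1 and lower in M2a cells.

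In M1 cells the largest rises of the wider list were in Cp, Spic and Slc48a1. Cp, which encodes the plasma ferroxidase that loads exported iron onto transferrin, averaged 10.26 ± 0.02 in M1 cells (SD, n = 3) and 5.32 ± 0.16 in M0 cells (SD, n = 5), a difference of 4.94 (adjusted p = 3.3e-11), beside 0.13 in M2a against M0 (adjusted p = 0.390). Spic, the heme-induced factor of red-pulp macrophages, was higher by 2.62 in M1 cells (adjusted p = 2.3e-05) and lower by 2.30 in M2a cells than in M0 cells (log2 difference -2.30, adjusted p = 9.6e-05). Over the alternative settings the Spic difference ran from 1.06 to 2.92 in M1 and from -3.70 to -2.17 in M2a against M0. Slc48a1, which moves heme out of the phagolysosome, was higher in both states, by 2.34 in M1 (adjusted p = 4.4e-07) and by 1.28 in M2a cells (adjusted p = 8.7e-05). The largest falls in M1 cells were in Ltf (-6.53, adjusted p = 9.2e-09), which encodes lactoferrin, the zinc and iron importer gene Slc39a8 (-1.87, adjusted p = 0.000246) and Cd163 (-1.44, adjusted p = 0.0016), which encodes the haptoglobin-hemoglobin receptor. Slc39a8 averaged 3.35 in M1 and 5.22 in M0 cells and Cd163 3.40 in M1 and 4.84 in M0 cells, all near or below the median signal of an array, and neither is shown to lie above background. Over the alternative settings the Slc39a8 difference ran from -3.47 to -1.42.

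In M2a cells Slc48a1, the heme and folate transporter gene Slc46a1 (1.11, adjusted p = 1.3e-05) and Alas1 (1.11, adjusted p = 0.000283) gave the largest rises of the wider list against M0 among called genes whose arrays did not overlap. Abcg2 rose by 1.13 (adjusted p = 0.0143) with overlapping arrays, and it was not called without M2a array 1 or 2 or with the hybridization covariate (-0.29). Alas1 encodes the first enzyme of heme synthesis outside red cells, and it also rose in M1 cells (1.71, adjusted p = 6.4e-06). The Slc46a1 rise in M2a cells was 0.56 with the other Slc46a1 probe set, and that in M1 cells (0.80) was 0.14 there and not called. The largest M2a falls were in Lcn2, which encodes the siderophore-binding protein lipocalin 2 (-8.42, adjusted p = 1.8e-09), in Ltf (-6.44) and in the haptoglobin gene Hp (-4.61, adjusted p = 6.9e-07). Lcn2 and Ltf are also neutrophil granule genes, and neutrophil-lineage markers fell with them in M2a cells. In M1 cells, where those markers were called lower as well, Lcn2 averaged 12.65 ± 0.03 (SD, n = 3) against 12.45 ± 0.53 in M0 cells (SD, n = 5), a difference of 0.20 (adjusted p = 0.564), which was called without M0 arrays 1 and 4 (0.51) and with the hybridization covariate (1.46). Hp was higher in M1 than in M0 cells by 1.79 (adjusted p = 0.00063), and by 3.41 with that covariate.

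Set directly against each other, M1 cells exceeded M2a cells most in Lcn2 (8.62, adjusted p = 1.3e-09), Hp (6.40, adjusted p = 5.4e-08) and Spic (4.92, adjusted p = 3.1e-07). M1 cells were below M2a cells most in Slc39a8 (-2.07, adjusted p = 0.000326), Lrp1 (-1.46, adjusted p = 0.0015), which encodes the receptor for heme-bound hemopexin, and Abcg2 (-0.98, adjusted p = 0.0496), which encodes a porphyrin exporter. The Abcg2 call was lost under 11 of 25 alternative settings, among them each M1 array, M2a array 1 or 2, or M0 array 2 or 3 left out, over which the difference ran from -1.01 to -0.87. The Lrp1 call was lost with the mean of its probe sets (-0.48).

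**Figure D5:**
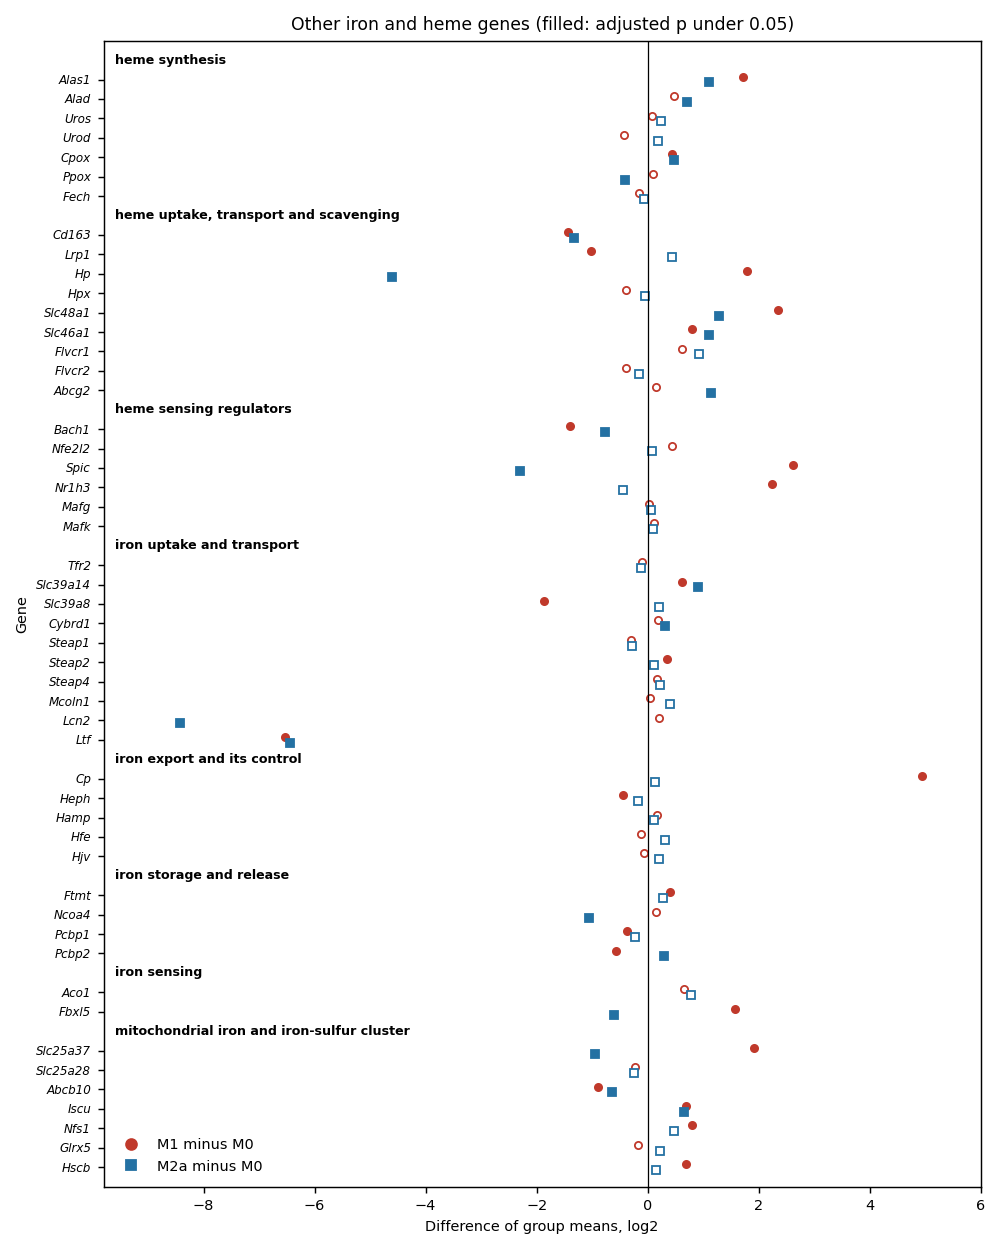
Log2 difference (x axis) of the 50 measured genes of the wider list, grouped by role down the page, in M1 minus M0 (circles) and M2a minus M0 (squares); filled marks passed the test. Cp lies at 4.94 in M1 cells alone, Lcn2 and Hp lie far left in M2a cells alone, and Ltf lies far left in both.

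Regulators in the wider list were singled out after their values had been seen. Bach1, the heme-sensing repressor of Hmox1, averaged 8.52 ± 0.07 in M1 cells (SD, n = 3), against 9.92 ± 0.15 in M0 cells (SD, n = 5), a difference of -1.41 (adjusted p = 7.3e-07). In M2a cells, whose Hmox1 was not called, Bach1 was lower than in M0 cells too (-0.76, adjusted p = 0.000144). Among the other transcription regulators of the list, Nr1h3 was higher in M1 than in M0 cells (2.23, adjusted p = 2.0e-06). In M2a against M0 it was not called (-0.44, adjusted p = 0.0857). Nfe2l2 was called against M0 neither in M1 (0.44, adjusted p = 0.119) nor in M2a cells (0.08, adjusted p = 0.797). Mafg and Mafk were not called against M0 in either state. Fbxl5, the iron-sensing ligase subunit that targets the Ireb2 protein for destruction, was higher in M1 than in M0 cells by 1.57 (adjusted p = 5.2e-06) and lower in M2a than in M0 cells (-0.60, adjusted p = 0.0072). Slc25a37, the mitochondrial iron importer gene, followed the same order, with 1.92 in M1 (adjusted p = 1.2e-07) and -0.94 in M2a against M0 (adjusted p = 6.1e-05). Ncoa4, the receptor that delivers ferritin for degradation, was lower in M2a than in M0 cells (-1.06, adjusted p = 0.0044) and higher in M1 than in M2a cells (1.21, adjusted p = 0.0039).

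Likeness of pattern was measured as the root mean square difference of mean-centred log2 values over the 11 arrays, with no test. The genes nearest to Hmox1 were Selenom (0.33), Xaf1 (0.36) and Ggct (0.37), with Selenom averaging 10.71 in M1, 7.59 in M2a and 6.95 in M0 cells. The genes nearest to Slc40a1 were Coro1a (0.54), Apoe (0.57) and Id1 (0.65), and Apoe averaged 13.76 in M1, 9.11 in M2a and 13.85 in M0 cells. Nearest to Steap3 were Fbxl16 and Rnf25 (0.11 each) and Lrrfip2 (0.12), the last averaging 8.74 in M1, 9.71 in M2a and 9.07 in M0 cells. The arrays of a group share their culture conditions, so such distances describe group means more than independent samples.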

How the data were processed

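RNA of 11 sorted macrophage samples was measured on an Affymetrix mouse array. The authors deposited log2 values of 45101 probe sets. The submitters' processing notes name Partek and no version; how background was corrected and values normalized is not given in the sources used here. No counts exist for arrays, so their number limits the precision. The 64 control probe sets were left out of the gene tests. A gene table gave 1 symbol to 34958 probe sets (34754 brought up to date by Entrez identifier) and several to 932, which were not used; 9211 are not in it. For each of 18193 genes the probe set of highest average signal was used. No column was left unused.

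Differences were fitted with limma 3.58.1 in R 4.3.3 (lmFit, eBayes; group means over 11 arrays, 8 residual degrees of freedom), with Benjamini-Hochberg adjustment over 18193 genes and a threshold of 0.05. No transformation was needed. Members and lists were chosen with earlier results of these data known. Named genes were all 10 members and, from the wider list, the 3 largest rises and 3 largest falls per comparison among called genes whose arrays did not overlap. These genes were also given in other comparisons. Outside that rule, Bach1, Nr1h3, Nfe2l2, Mafg, Mafk, Fbxl5, Slc25a37 and Ncoa4 were named after their values had been seen. So was Abcg2 in M2a against M0. Alternatives were other probe set choices, normalizations, a filter, variance settings, array subsets, weights, a replicate block, control covariates and each array left out. A fit of all probe sets was added after seeing the data. Shared replicate numbers were not taken as pairs, and whether they mark pairs is not known.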

Additional observations from a re-analysis of the deposited data

How the results depend on the processing

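Of 750 recomputed differences of the 10 genes under 25 alternative settings, 688 kept their direction and side of the threshold, 23 lost a call, 16 gained one and 23 turned in sign. Hmox1, Tfrc and Slc11a2 in M1 against M0, Slc40a1, Steap3 and Slc11a1 in M2a against M0, and Hmox1, Blvrb, Slc40a1, Tfrc, Steap3 and Slc11a1 in M1 against M2a were called under all 25. The called difference that turned was Fth1 in M1 against M0. In each case below the cause was not tested.

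With the hybridization controls as a covariate, whose M0 range does not overlap those of the other groups so that covariate and M0 group cannot be told apart, the sign turned in M1 against M0 for Steap3 (0.21), Fth1 (-0.16) and Ireb2 (-1.003), in M2a against M0 for Hmox1 (-1.23), Blvrb (-0.48), Tfrc (-0.41), Fth1 (-0.29) and Ireb2 (-0.94), and in M1 against M2a for Ireb2 (-0.0621), as it did for Abcg2 in M2a against M0 (-0.29). There the calls split into 2 higher and 4 lower for M1 and 1 higher and 5 lower for M2a, and in the wider list into 15 higher and 19 lower for M1 and 9 higher and 21 lower for M2a. Over all 18193 genes that fit called 8651 in M1 and 9008 in M2a against M0, in place of 7217 and 5804. With the actin 5′ to 3′ difference as a covariate, Steap3 (0.0497) and Ireb2 (-0.38) turned in M1 against M0 and Fth1 (-0.0225) and Ireb2 (-0.59) in M1 against M2a. Quantile normalization turned Fth1 (-0.0621) and Ireb2 (-0.0134) in M1 against M2a, and the mean of all probe sets turned Steap3 in M1 against M0 (0.0083) and Cp in M2a against M0 (-0.0643). Without M0 arrays 1 and 4, Ireb2 turned in M1 against M0 (-0.0223), and Hmox1 (-0.27), Blvrb (-0.0297) and Ireb2 (-0.10) in M2a against M0. Hmox1 in M2a against M0 also turned with array weights (-0.0717), and with each array left out in turn it ran from -0.15 to 0.40. None of the turned values was called except, with the hybridization covariate, Ireb2 against M0 in both states and Hmox1 in M2a.

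Leaving out each array in turn gave 5 to 8 called genes in M1 against M0, 4 in M2a against M0 and 6 to 7 in M1 against M2a, and in the wider list 21 to 33, 15 to 24 and 14 to 19. Over all 18193 genes those fits called 5391 to 8457, 4161 to 6829 and 3927 to 6192. The wider list gave 32 calls (15 higher, 17 lower) in M1 against M2a with the arrays of those groups alone and 33 (15 higher, 18 lower) with array weights, in place of 18. Over all 18193 genes the same fits called 10357 and 11342, in place of 5341, so the calls rose over all genes as well. With the replicate number as a block, 7, 4 and 7 of the 10 genes and 27, 23 and 19 of the wider list were called. Over all 18193 genes that fit called 8023, 6492 and 6963. Deviations from the group mean correlated at -0.04 to 0.25 between same-numbered arrays and at -0.24 to 0.22 between other-numbered arrays. Such deviations over 3 arrays a group cannot decide whether arrays were paired, and the numbers were not taken as pairs.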

Other observations

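The array also carries control probe sets for transferrin receptor, which were not among the genes tested. Its 3′ control probe set read 4.21 to 4.31 in M1 cells, 4.86 to 5.08 in M2a cells and 4.47 to 4.81 in M0 cells, without overlap between the groups. The 5′ control probe set read 2.77 to 2.88 in M1, 3.07 to 3.15 in M2a and 2.70 to 3.06 in M0 cells, and the middle one read 2.54 to 2.97 in M1, 3.21 to 3.32 in M2a and 2.97 to 3.23 in M0 cells.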
